A study of Homo sapiens with 23 samples.

Results

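Genes that carried propionylated but not acetylated histone H3 lysine 18 (H3K18pr and H3K18ac), and the reverse, were sought in cells given sodium propionate (NaPr). The comparison used 4 libraries of the 23 in the series, 2 replicates of H3K18pr NaPr and 2 of H3K18ac NaPr, chosen by their labels and not by any measured value. All 4 came from SW480, a cell line grown from the epithelium of a human colorectal tumour, and all 4 were from cells kept in 10 mM NaPr for 12 to 16 h. No H3K18pr library of untreated cells was used here. Chromatin immunoprecipitation and sequencing (ChIP-seq) had been done with a propionyl antibody from one vendor and an acetyl antibody from another, and the submitted lists of regions (peaks) carry different run names for the 2 marks, so mark, antibody and run cannot be told apart. No label states whether replicates were separate cultures.

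Acyl groups are placed on lysines by acyltransferases that take the matching acyl-CoA as donor, and are removed by deacylases. Propionyl-CoA comes from propionate, from odd-chain fatty acids and from some amino acids, and the colon is a tissue where propionate made by gut bacteria is abundant. H3K18ac is a mark of active promoters and enhancers, written by EP300 and CREBBP. Propionylation adds a longer carbon chain at the same residue, so a given lysine can hold an acetyl or a propionyl group but not both at once.

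Of 38899 protein-coding and lncRNA genes of GENCODE 44, a gene was said to hold a mark at its start when a region of that library overlapped the window 1 kb to either side of its 5′ end by 1 bp or more. It held the mark over its body when a region lay over the gene beyond that window, which 35720 genes are long enough to allow. A gene was propionyl-only when both H3K18pr replicates and neither H3K18ac replicate held it, and acetyl-only in the reverse case. Regions are presence calls and carry no strand, so a gene called one-sided may still have had signal below the threshold of the other mark.

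The regions of 3 genes that led these classes show the chromatin involved. Each line gives the 100 bp to either side of the summit on hg38, plus strand, read from the reference genome. Capitals mark an octamer (ATTTGCAT) in MED16, chosen after the window was seen. The DNAH6 and BICRAL windows held none of the motifs searched. DNAH6 was propionyl-only at the start, BICRAL and MED16 acetyl-only.
DNAH6 chr2:84515949-84516149: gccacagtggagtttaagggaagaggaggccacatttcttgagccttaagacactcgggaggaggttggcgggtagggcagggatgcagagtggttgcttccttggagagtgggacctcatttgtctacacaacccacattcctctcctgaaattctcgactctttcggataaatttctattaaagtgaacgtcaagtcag
BICRAL chr6:42783588-42783788: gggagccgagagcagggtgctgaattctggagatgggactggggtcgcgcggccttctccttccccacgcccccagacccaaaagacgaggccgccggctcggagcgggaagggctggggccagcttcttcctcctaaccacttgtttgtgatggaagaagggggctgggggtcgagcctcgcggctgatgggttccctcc
MED16 chr19:893259-893459: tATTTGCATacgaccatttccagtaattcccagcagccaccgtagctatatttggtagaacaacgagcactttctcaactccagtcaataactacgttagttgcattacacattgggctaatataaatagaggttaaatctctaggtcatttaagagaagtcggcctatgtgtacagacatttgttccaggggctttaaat
The DNAH6 window had its summit 406 bp upstream of the gene's 5′ end. The BICRAL window was intronic, with its summit 1636 bp from the 5′ end. The MED16 window was intergenic, its summit at −141 bp from the 5′ end of MED16 and 125 bp from the small nuclear RNA gene RNU6-9, so its region cannot be assigned to MED16 rather than to that gene. The GC content of the MED16 window was 39.3%, against 66.2% for BICRAL with 13 CpG.

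The 4 lists differed in length and depth. H3K18pr replicates 1 and 2 had 94121 and 95924 regions, and H3K18ac replicates 1 and 2 had 202787 and 95194. Depth recovered from the deposited values was 4.93 and 3.38 fragments per kb of genome for H3K18pr, against 38.6 and 24.1 for H3K18ac, so folds (summit fragments over local background) are comparable within a list and not between marks. In the 20000 strongest regions, the H3K18pr replicates shared 0.535 of their joint base pairs, while the H3K18ac replicates shared 0.333. H3K18ac replicate 1 lay closest to untreated H4K12ac replicate 1 (0.551), and H3K18ac replicate 2 lay closest to H3K18pr replicate 2 (0.408). Both H3K18ac libraries thus shared more with libraries of another group than with each other. Whether labels or files were exchanged was not tested, and every acetyl-only value rests on the labels as given. Counts of classes, places, coverage, start sequence and other marks are given with and without H3K18ac replicate 1, while the genes named in each class rest on all 4 libraries.

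The labelled cell type had support at some of its defining genes. Of 10 colon epithelial markers, 8 and 6 were held at the start by the H3K18pr libraries and 6 and 5 by the H3K18ac libraries, with KRT8, KRT18, KRT19, CDH1 and CDX2 held by all 4. KRT20 and LGR5 were held by none. Of 9 blood cell markers, 1 or 2 were held in each library, with CD14 held by all 4 and PTPRC, CD3E, LYZ and HBB by none. Of 7 neuronal markers the libraries held 4, 2, 5 and 5, with TUBB3 held by all 4.

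At gene starts the acetyl-only class was the larger. With all regions, 347 genes were propionyl-only (0.892% of all genes) and 1315 acetyl-only (3.38%), a propionyl share of one-sided genes of 20.9% (95% Wilson interval 19.0% to 22.9%, counting error only). With the 94121 strongest regions of each list (equal numbers), 470 genes (1.21%) were propionyl-only and 1069 (2.75%) acetyl-only, a share of 30.5%. With the 20000 strongest the counts were 370 (0.951%) and 1319 (3.39%). Without H3K18ac replicate 1 the counts were 1412 and 2155, a share of 39.6%. Acetyl-only then asked for a region in 1 H3K18ac list, while propionyl-only still asked for both H3K18pr lists. The rule was thus no longer the same for both classes, and this share cannot be read against an even split.

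Over gene bodies the larger class depended on how many regions were used. With all regions, 548 genes (1.53%) were propionyl-only and 905 (2.53%) acetyl-only, a share of 37.7% (35.3% to 40.2%). Equal numbers turned this to 901 (2.52%) against 601 (1.68%), a share of 59.99%, and the 20000 strongest gave 572 (1.6%) against 584 (1.63%). Leaving out H3K18ac replicate 1, with the same change of rule, also turned it, to 56.2%. Of the body counts with all regions, 245 (1.25%) and 528 (2.7%) were protein-coding genes and 303 (1.87%) and 377 (2.33%) lncRNAs.

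**Figure D1:**
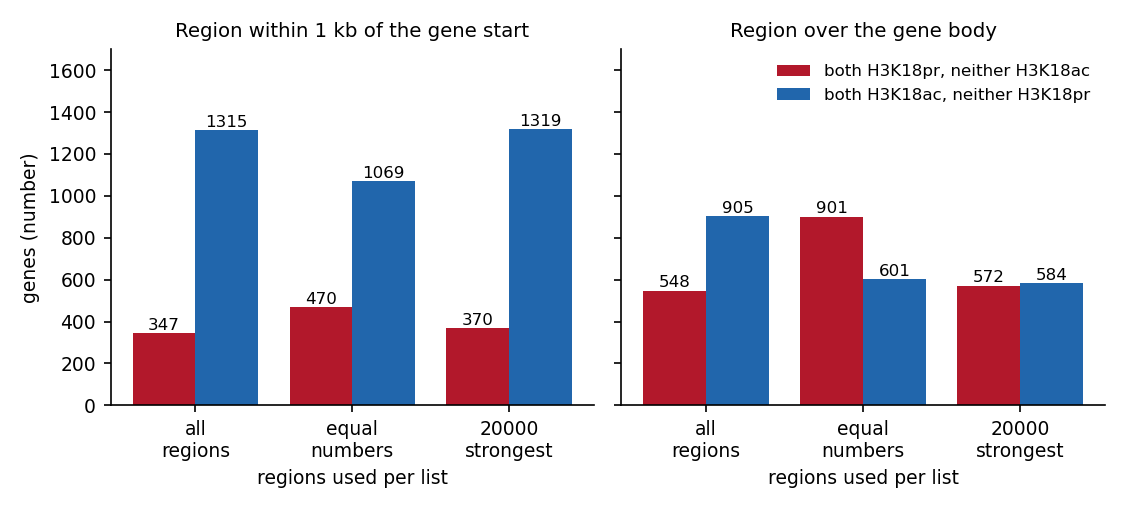
Number of genes (vertical axis) held by both replicates of one mark and neither of the other, at gene starts (left) and over gene bodies (right), with all regions, equal numbers per list or the 20000 strongest. Acetyl-only genes were more numerous at starts under all 3 settings, while over bodies the order changed from 548 against 905 to 901 against 601 with equal numbers.

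Most genes were not one-sided. At the start 10567 genes (27.2%) were held by all 4 libraries and 15705 by none, and over the body 11920 were held by all 4. The number of genes held at the start was 16278 and 14409 in the H3K18pr libraries and 19628 and 15827 in the H3K18ac libraries. H3K18pr replicate 1 held more than H3K18ac replicate 2, so the groups overlapped (mean difference −2384 genes, two-sided exact permutation p = 0.667, with 0.333 the smallest p that 2 against 2 libraries allow). Body genes numbered 18141 and 18803 against 21489 and 17329, a difference of −937 (exact permutation p = 1).

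Of the 347 propionyl-only starts, 342 stayed propionyl-only with equal numbers, 135 of them protein-coding. Of the 1315 acetyl-only starts, 1066 did, 747 of them protein-coding. The following gene descriptions use these stable sets. Support was thin in the propionyl set, where the 135 genes had a median of 11 and 8 fragments at the summit in replicates 1 and 2 (lowest 5 in each) and a median fold of 3.88 and 3.93. The 747 acetyl-only genes had 48 and 27 fragments (lowest 22 and 13) and a fold of 3.82 and 2.72, in deeper libraries.

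Many one-sided genes had the other mark close by. The nearest H3K18ac region lay a median of 2.79 kb from the 5′ end of the 347 propionyl-only genes, within 5 kb for 247 (71.2%) and beyond 50 kb for 16. For the 1315 acetyl-only genes the nearest H3K18pr region lay a median of 4.63 kb away, within 5 kb for 695 (52.9%) and beyond 50 kb for 43. When every annotated transcript start of a gene was allowed, 269 (77.5%) and 977 (74.3%) stayed one-sided. An H3K18ac region lay over the body of 219 of the 347 propionyl-only genes, and an H3K18pr region over that of 838 of the 1315 acetyl-only genes.

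The propionyl-only genes with the strongest regions were taken from 121 eligible protein-coding genes, by the lower of the within-list percentiles of the 2 replicates. LARP4, an RNA-binding protein that binds poly(A) tails, led with a fold of 42.9 and 19.1. Its best regions spanned 7299 and 4849 bp with both summits outside the 1 kb around its 5′ end, and that of replicate 1 nearer the start of another gene, so the fold cannot be assigned to LARP4 alone. The nearest H3K18ac regions lay 1987 and 1164 bp from its 5′ end, just outside the window. LARP4 was not one-sided when its other transcript starts were allowed. HKDC1, a hexokinase-domain protein that phosphorylates glucose, had a fold of 18.9 and 11.1 over 56 and 26 fragments at summits outside the 1 kb around its 5′ end, with H3K18ac 1871 and 1424 bp away. In both genes the other mark was present just outside the window.

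DNAH6 gave the clearest separation among the leading genes. It codes for an inner-arm dynein heavy chain of motile cilia, and its start at 84516455 on chromosome 2 was overlapped by regions of both H3K18pr libraries, with a fold of 9.60 and 9.83 and 54 and 26 fragments. The nearest H3K18ac regions in NaPr cells were 30367 and 36629 bp away. Both H3K18ac libraries of untreated cells and both H4K12pr NaPr libraries held it.

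The other leading propionyl-only starts had folds of 4.87 to 24.7. RTP3, a chaperone that carries taste receptors to the membrane, had 10.8 and 8.68, and KRT34, a hair keratin, had 9.11 and 6.40. SHISAL1 had 9.34 and 10.5, with the nearest H3K18ac region 1247 bp away in replicate 2 and 16438 bp away in replicate 1. ATG9B, an autophagy lipid scramblase, had 24.7 in replicate 1 and 5.61 in replicate 2, as a ratio the widest gap between replicates among the 12 genes named. TMEM219, a receptor for IGFBP3, had 6.72 and 5.50. ACTBL2, an actin-like protein, had 6.35 and 5.50 with no H3K18ac region within 11685 bp. ZNF474 and ENSG00000250803 start beside each other and share the same regions (6.99 and 4.87), so they count as 1 locus. C11orf16 (5.30 and 5.34) closed the list.

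The 135 stable propionyl-only protein-coding starts were grouped by textbook function after their names were seen, so the groups describe and test nothing. Such genes were not counted among all protein-coding genes, so no group can be called more frequent here than elsewhere. A group of 13 coded for immune and blood cell signals or their regulators. TNF, the inflammatory cytokine, had a fold of 5.32 and 4.45 on 14 and 9 fragments, and its neighbour LTB, a subunit of lymphotoxin, had 4.86 and 4.12. IL18, a cytokine matured by the inflammasome, had 3.58 and 3.28, and NLRP1, an inflammasome sensor, had 4.48 and 3.66. KITLG, the ligand of the KIT receptor, had 3.36 and 4.12 with the nearest H3K18ac region 97711 bp away. SPI1, a master factor of myeloid cells, had 3.73 and 3.66, and CCR10, ALOX15, ANXA1, AZU1, DEFB123, THPO and ZNF683 completed the group. For TNF, LTB and SPI1 the nearest H3K18ac region was 1128 to 1561 bp away.

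Other functions were each represented by a few genes. Blood clotting and its dissolution had 4, namely F7, F12, F13A1 and PLAT (8.06 and 3.18), the tissue plasminogen activator. Cilia and the sperm tail had 7, among them DNAH9, another axonemal dynein (4.48 and 5.04), CFAP141 (5.92 and 4.34), CATIP (8.34 and 4.18), CABCOCO1 (3.73 and 7.78) and AKAP4, a scaffold of the sperm fibrous sheath (16.1 and 19.1). Hormones, transmitter receptors and secreted inhibitors had 7, including CRH, the corticotropin-releasing hormone (5.602 and 4.33), NPPB (4.11 and 4.58), DRD1, MC3R and the bile acid receptor GPBAR1.

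Membrane transport had 5, with SLC2A9, a urate transporter (5.602 and 3.66), SLC3A1, the cystine transporter subunit (4.60 and 4.57), SLC6A19, the neutral amino acid transporter of the brush border (3.73 and 3.21), ABCC8 and FXYD7. Metabolic enzymes had 8, among them ALDH1A1, which makes retinoic acid (3.88 and 3.62, nearest H3K18ac 29686 bp away), HSD11B1, which regenerates cortisol (3.73 and 3.66), and LIPH, a phospholipase (3.04 and 3.72).

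Transcriptional regulators had 8 members. ELF3, an epithelial ETS factor, had a fold of 3.87 and 3.20, and TLE1, a Groucho corepressor, had 5.39 and 5.67. HDAC2, a class I histone deacetylase, had 3.73 and 5.50 at its annotated 5′ end, but was not one-sided when its other transcript starts were allowed. HOXB7, NKX2-3, BARX1, PRDM12 and ZFP57 were the others. Cytoskeleton, adhesion and the cornified layer had 8, including MYO5B, the motor that recycles apical membrane in enterocytes (5.32 and 4.58), and SPRR2D, a cornified envelope protein (3.19 and 5.04) with no H3K18ac region within 128747 bp. The remaining 75 genes fitted none of these groups.

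A stricter reading kept 19 of the 135 genes, those with no H3K18ac region within 10 kb and one-sided at every transcript start. They were ACTBL2, ALDH1A1, CABCOCO1, CEMIP, DNAH6, DRD1, DYDC1, F13A1, FAM13C, FAM72A, KITLG, MAGEC1, NBPF20, PNMA6E, RUNDC3B, SPRR2D, STEAP1B, ZC3H12B and ZFP57. CEMIP, a hyaluronan-binding protein linked to invasion in colorectal cancer, had a fold of 3.73 and 5.34. The same reading kept 199 of the 747 acetyl-only genes. NBPF20 and FAM72A belong to families of near-identical copies, where reads may be split between copies, and their values are uncertain.

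The leading acetyl-only genes are given next, with folds that are not comparable with those of H3K18pr. BICRAL, a subunit of the GBAF form of the SWI/SNF remodelling complex, had a fold of 19.1 and 27.7, with 266 summit fragments in replicate 1. That summit lay 1636 bp from its 5′ end, outside the 1 kb window. The nearest H3K18pr regions lay 1070 and 1161 bp from its 5′ end, just outside the window. The region assigned to MED16, a subunit of the Mediator tail, had 8.22 and 14.3 on 151 and 210 fragments, with H3K18pr 5878 and 6179 bp away. KNL1, a kinetochore scaffold, had 10.0 and 4.52, and H3K18pr regions were 28337 and 11514 bp from its start.

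Signalling, traffic and RNA genes followed. LAMTOR3, part of the Ragulator complex that anchors mTORC1 at lysosomes, had a fold of 6.30 and 7.39, and no H3K18pr region lay within 40797 bp. RAB39B, a vesicle GTPase, had 4.05 and 5.24, and PUS7, a pseudouridine synthase, had 5.71 and 3.46. ATXN7L2, a relative of a SAGA subunit, had 10.9 and 5.67, and NPHP4, a protein of the ciliary transition zone, had 6.76 and 6.45. ATRNL1 had 5.66 in replicate 1 and 18.02 in replicate 2, TTPA, the vitamin E transfer protein, had 5.59 and 4.54, and ZDHHC12 and ASMTL had 3.13 to 5.80. ASMTL lies in a stretch that X and Y share, so its reads may be split. Of the 12, all were held by both H3K18ac and both H4K12ac libraries of untreated cells, and 6 by both H4K12pr NaPr libraries.

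**Figure D2:**
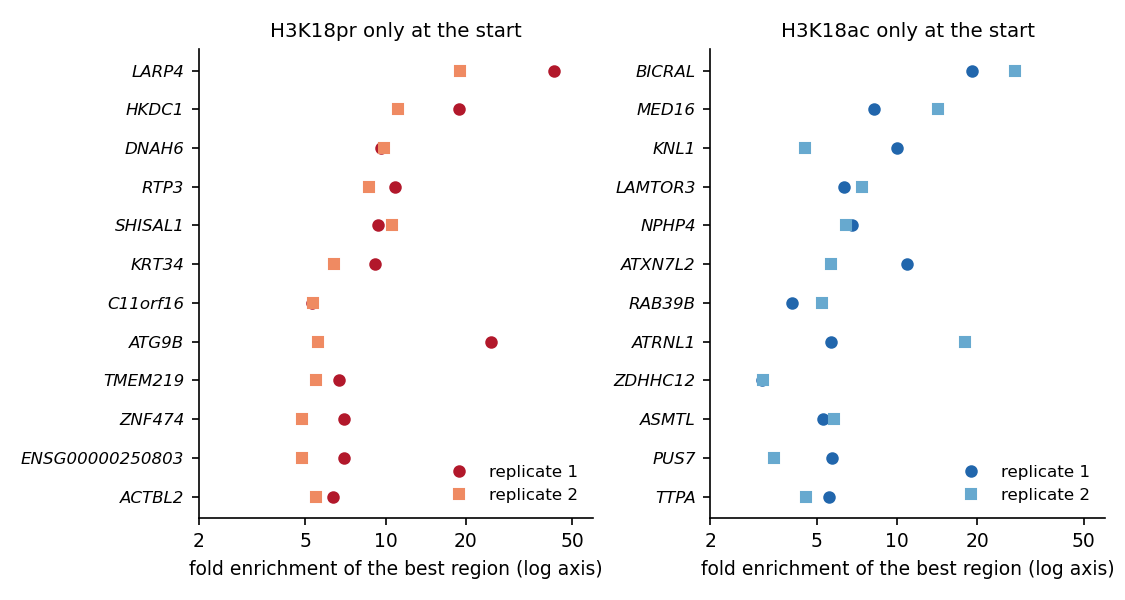
Fold of the best region at the start of the 12 leading propionyl-only genes (left) and the 12 leading acetyl-only genes (right), with replicate 1 as circles and replicate 2 as squares on a log axis. Folds should be compared within a panel, since the libraries of the marks differ in depth. LARP4 (42.9 and 19.1) and BICRAL (19.1 and 27.7) led, and ATG9B and ATRNL1 had the widest gaps between replicates as a ratio. Both summits of LARP4, and that of BICRAL in replicate 1, lay outside the 1 kb around the 5′ end.

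The gene lists are read against the shares of all genes, 0.892% propionyl-only and 3.38% acetyl-only (0.674% and 4.39% of protein-coding genes). Most lists held 0 to 4 one-sided starts, too few to set a list apart, so the members are named as a description. Of 30 Mediator genes, 3 were acetyl-only (MED6, MED23 and MED16, whose region may belong to RNU6-9) and none propionyl-only. MED6 had a fold of 4.97 and 3.41 and MED23 4.49 and 2.61. Of 31 readers of acyl-lysine, BRD7 (4.33 and 2.12) and BRD8 (2.10 and 1.88) were acetyl-only, and of 16 histone acyltransferases NCOA2 (7.94 and 4.34) was. BRD8 shares its start region with KIF20A. Of 18 deacetylases and sirtuins, SIRT4, a mitochondrial sirtuin, was acetyl-only (3.39 and 3.05) and HDAC2 propionyl-only.

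Of 43 enzymes that make or break short acyl-CoAs, 3 were acetyl-only at the start, namely PCCB, a subunit of the propionyl-CoA carboxylase that consumes propionyl-CoA (5.13 and 1.87), BCKDHB, of the branched-chain ketoacid dehydrogenase (2.32 and 2.81), and ACAD8, the isobutyryl-CoA dehydrogenase (2.60 and 2.09). H3K18pr regions were 12377 to 62125 bp from these 3 starts. No member was propionyl-only.

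Mitochondrial and translation genes lay near or below the background. Acetyl-only starts were 3 of 77 mitochondrial ribosomal proteins (MRPL35, MRPL41, MRPL45), 3 of 98 oxidative phosphorylation genes (ATP5F1D, COX15, NDUFS4) and 1 of 88 ribosomal proteins (RPS24, 9.86 and 2.98). UQCRHL, an intronless near copy of the complex III gene UQCRH whose reads may be split, was the propionyl-only member of oxidative phosphorylation (4.86 and 3.50). The acetyl-only shares of these lists were 3.90%, 3.06% and 1.14%, against 3.38% of all genes.

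Growth signalling lists held few one-sided starts. Of 78 cascade genes, DUSP9, a phosphatase of ERK, was propionyl-only (4.11 and 3.21), and MAP2K4, MAP3K3, MAP3K5, MAP4K5 and MAPK3 were acetyl-only (MAPK3 5.33 and 4.00). Of 44 TGF-beta and SMAD genes 3 were acetyl-only. They were the ligand TGFB3 (3.18 and 3.22), the receptor TGFBR1 (2.73 and 1.78) and the inhibitor SMAD6 (2.85 and 2.41). Of 52 EGF receptor genes CBL and MAPK3 were acetyl-only, and of 62 Wnt genes WNT4, ZNRF3 and FZD10 were, the last only with all regions.

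Among 50 cyclins and CDK genes the acetyl-only starts were CCNE2 (4.84 and 2.78), CDKN2C (3.90 and 2.51) and CDKN2D (3.86 and 2.53), and of 65 replication and mitosis genes MCM3 (4.18 and 3.44). Of 508 ZNF genes 24 were acetyl-only (4.72%) and 3 propionyl-only (ZNF474, ZNF683, ZNF765). Of 383 solute carriers 13 (3.39%) were acetyl-only and 3 (0.783%) propionyl-only, at the shares of all genes.

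Several lists had no one-sided start. None of 14 AP-1 family genes was one-sided at the start or over the body, and 12 were held by all 4 libraries, with JUN at a fold of 60.8 and 32.7 in H3K18pr and 8.15 and 11.4 in H3K18ac. None of 47 unfolded protein response genes, 53 focal adhesion genes or 26 adherens junction genes was one-sided at the start. FOXA2 was acetyl-only (2.46 and 3.62) and ELF3 propionyl-only among 35 intestinal transcription factors.

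Among lncRNAs the balance was more even with all 4 libraries. Propionyl-only starts were 212 lncRNAs (1.12% of 18866) and acetyl-only 436 (2.31%), against 135 (0.674% of 20033) and 879 (4.39%) of protein-coding genes. With equal numbers the lncRNAs were 264 (1.4%) and 319 (1.69%), and the protein-coding genes 206 (1.03%) and 750 (3.74%). Without H3K18ac replicate 1 the lncRNAs were 553 and 905 and the protein-coding genes 859 and 1250. The lncRNA balance was then no longer the more even one. Of 2263 LINC genes 33 were propionyl-only and 43 acetyl-only. Of 2532 antisense and divergent lncRNAs 20 were propionyl-only, among them IL6-AS1 and BARX1-DT, and 89 acetyl-only.

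The classes differed in sequence at the gene start, which the regions had no part in choosing. The difference did not hold when H3K18ac replicate 1 was left out, and a reading without H3K18ac replicate 2 was not made. In the 100 bp to either side of the 5′ end, propionyl-only genes had a median of 4 CpG, acetyl-only genes 16, genes held by all 4 libraries 18, and all genes 7. Among protein-coding genes the medians were 5, 19, 19 and 15, and at least 10 CpG were found in 32.6%, 76.8%, 84.7% and 62.4%. The GC box (GGGCGG or CCGCCC, either strand) was present in 21.3% of propionyl-only, 50.1% of acetyl-only and 33.2% of all starts. Among lncRNAs the medians were 4, 7, 14 and 3. With H3K18ac replicate 1 left out the median was 11 CpG for propionyl-only and 9 for acetyl-only starts (15 and 16 among protein-coding genes), and the GC box was in 39.3% and 38.6%, so the classes no longer stood apart.

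Windows around the summits, with all 4 libraries, gave the following shares. The GC box was in 11.7% and 8.66% of windows at propionyl-only starts in H3K18pr replicates 1 and 2, against 26.3% and 25.2% of all start regions of those lists. At acetyl-only starts it was in 25.2% and 26.2%, against 24.2% and 28.9%. Mean CpG per window was 4.88 and 4.42 at propionyl-only starts against 10.4 and 10.1 over all start regions, and 10.7 in each H3K18ac replicate at acetyl-only starts. AP-1 (TGACTCA, either strand) was in 3.29% and 2.09% of propionyl-only windows against 2.10% and 2.21% of all, so only replicate 1 was higher, on 11 windows. SMAD (CTGTCTGG) was in 0.898% and 1.79% of propionyl-only windows against 1.23% and 1.17% of all. At acetyl-only starts it was in 2.19% and 1.41% of windows against 1.24% and 1.23% of all. The octamer of MED16 was in 0.527% and 0.707% of acetyl-only windows against 0.445% and 0.431%.

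With all 4 libraries propionyl-only genes also had a different setting. Another gene started within 1 kb of 9.22% of them, against 28.1% of acetyl-only genes, 48.9% of genes held by all 4 and 24.6% of all genes. Protein-coding genes made up 38.9% of the propionyl-only and 66.8% of the acetyl-only class. Without H3K18ac replicate 1 they were 859 of 1412 and 1250 of 2155, so that difference did not hold. Median gene length was 10.03 kb and 20.7 kb, against 14.9 kb for all genes. Neighbouring starts and gene length were not read without H3K18ac replicate 1.

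Libraries that the rule did not use were then read at the same starts. Of the acetyl-only genes, 76.6% were held by both H3K18ac libraries and 70.4% by both H4K12ac libraries of untreated cells, against 45.1% and 43.9% of all genes. Of the propionyl-only genes these were 20.2% and 14.99%. Both H4K12pr NaPr libraries held 28.0% of propionyl-only and 36.3% of acetyl-only genes, near the 36.5% of all genes in the second case and below it in the first. H4K12ac NaPr held 3.17% and 11.1% against 14.5%. These differences did not hold when H3K18ac replicate 1 was left out. Leaving it out also changes the classes, since propionyl-only then admits genes that this library holds. It was the library closest to an untreated acetyl list, so a turn at the untreated marks is partly built in. The same reading without H3K18ac replicate 2 was not made. Without it the untreated H3K18ac libraries held 72.3% of propionyl-only and 50.6% of acetyl-only starts, untreated H4K12ac 65.9% and 45.2%, and H4K12pr NaPr 56.5% and 24.5%, so the order of the classes turned for all 3. The input lists also differed. Input of untreated cells held 7.205% of propionyl-only, 21.3% of acetyl-only and 13.04% of all starts, and input of NaPr cells 3.17%, 13.9% and 7.33%. Leaving out H3K18ac replicate 1, the classes stood at 17.99% and 15.7%, and at 6.02% and 11.8%. The part of input signal in the classes was not tested.

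**Figure D3:**
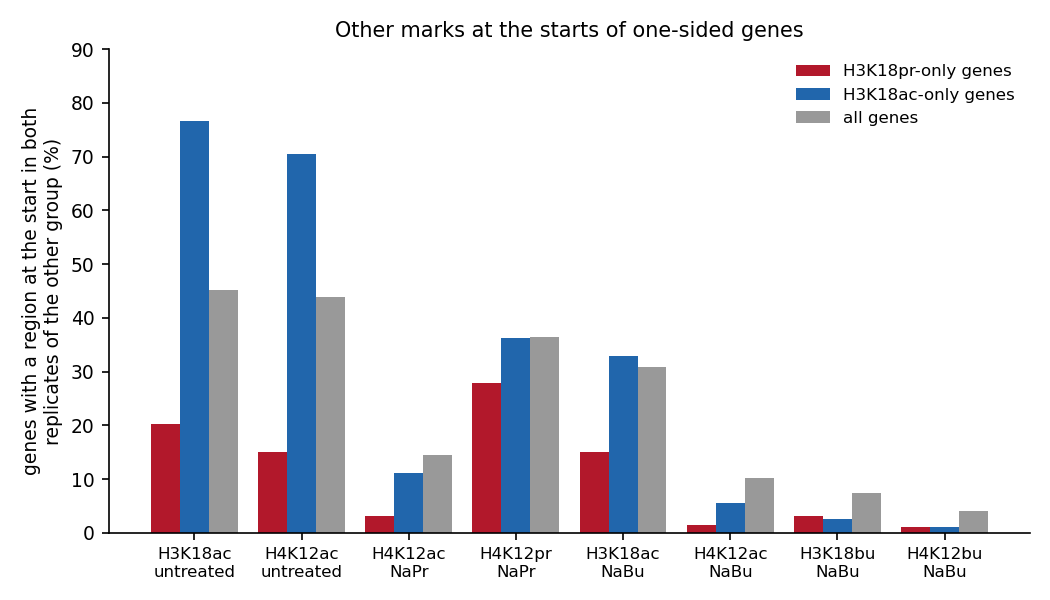
Percentage of propionyl-only, acetyl-only and all genes (vertical axis) whose start was held by both replicates of each of 8 other groups (horizontal axis). Acetyl-only genes stood at 76.6% and 70.4% for the untreated acetyl marks against 45.1% and 43.9% of all genes, and propionyl-only genes were below all genes in all 8 groups. When H3K18ac replicate 1 was left out the first 2 pairs turned, to 72.3% of propionyl-only against 50.6% of acetyl-only genes and 65.9% against 45.2%.

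Strength at gene starts was compared next for genes that both marks held, since most genes fall there. Regions were placed by their deposited −log10 p within the 94121 strongest of each list, with 100 the strongest percentile. Of 10325 genes held by all 4 lists, 1559 (15.1%) had a higher percentile in both H3K18pr than in both H3K18ac libraries and 3735 (36.2%) the reverse. With all regions, where the longer H3K18ac replicate 1 list raises its percentiles, these were 847 (8.02%) and 4390 (41.5%) of 10567. Without H3K18ac replicate 1, equal numbers gave 3407 (33.0%) and 4638 (44.9%). The median difference was −2.52 percentile points toward acetyl, against which the lists below are read.

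Several epithelial lists lay on the propionyl side of this background by place, also without H3K18ac replicate 1. Of 12 keratins held by all 4 lists, 7 had the higher place in H3K18pr and none in H3K18ac, namely KRT5, KRT13, KRT15, KRT19, KRT23, KRT72 and KRT75. KRT23 stood at 99.6 and 99.2 in H3K18pr and 89.4 and 97.2 in H3K18ac. KRT15 and KRT19 are neighbours with the same place in each H3K18pr list (99.8 and 99.5), so they may count as 1 locus. Of 6 desmosome genes, DSP (97.7 and 98.2 against 92.3 and 95.9), PKP3 and PKP4 were higher in H3K18pr and none was higher in H3K18ac. Of 8 adherens junction genes, NECTIN2 (99.0 and 99.1 against 94.6 and 96.2), PLEKHA7 and PTPRF were, again with none the other way. Leaving out H3K18ac replicate 1, keratins stood at 8 against 0, desmosomes at 6 against 0 and adherens junctions at 5 against 0. Tight junctions divided 5 to 4 of 16, and 7 to 7 without that library. One-sided starts of these lists were few and did not all lean toward propionyl. Of 55 keratins 1 (1.82%) was propionyl-only and 4 (7.27%) acetyl-only, against 0.892% and 3.38% of all genes. With equal numbers these were 2 and 1. EVPL, of 13 desmosome genes, and LLGL2, of 32 tight junction genes, were acetyl-only. The epithelial-mesenchymal transition list was also toward propionyl, 3 (FN1, VIM and ZEB1) against 2 of 7.

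Intestinal identity genes split 6 to 3 of 11, and 7 to 4 without H3K18ac replicate 1. CDX2, the homeobox factor of intestinal fate, stood at 97.6 and 98.1 in H3K18pr and 60.1 and 75.8 in H3K18ac. SOX9, a factor of crypt cells, stood at 99.1 and 98.4 against 86.0 and 95.5, and VDR, the vitamin D receptor, at 90.3 and 93.1 against 69.2 and 89.3. HES1, ID1 and KLF4 were the others. Enterocyte and goblet genes divided 3 to 1 of 6, with PLS1 higher in H3K18ac, and 5 to 1 without H3K18ac replicate 1. MUC2, the secreted mucin, stood at 98.5 and 98.9 against 82.6 and 51.3, and TFF2, a trefoil peptide, was also higher in H3K18pr. MUC1 (95.5 and 96.0) stood at 94.2 in H3K18ac replicate 1 and 8.1 in replicate 2. For MUC1 the H3K18ac replicates were thus farther apart than the marks.

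Growth factor and cell cycle lists split nearly evenly in counts, which with all 4 libraries is on the propionyl side of all genes (15.1% and 36.2%). EGF receptor signalling had 25% toward propionyl and 30.6% toward acetyl, TGF-beta and SMAD 29.2% and 33.3%, and cyclins and CDK genes 23.3% and 30%. With H3K18ac replicate 1 left out EGF receptor signalling stood at 11 against 16 of 36 (30.6% toward propionyl, under the 33.0% of all genes), TGF-beta and SMAD at 11 against 9 of 24, and cyclins and CDK genes at 13 against 11 of 30. EGF receptor signalling had 9 against 11 of 36, and the 9 were AREG, BTC, DUSP6, EGFR, ERRFI1, HBEGF, HRAS, SPRY4 and TGFA. EGFR stood at 98.2 and 98.0 against 87.6 and 97.2, and its ligand AREG at 92.6 and 89.6 against 74.1 and 78.2. TGF-beta and SMAD had 7 against 8 of 24, with SMAD3, the receptor-activated transducer, at 97.5 and 97.6 against 91.0 and 96.8, and the ligand TGFB2 at 78.1 and 78.9 against 24.5 and 15.6. Cyclins and CDK genes had 7 against 9 of 30, with the inhibitor CDKN2B at 96.3 and 93.9 against 66.5 and 84.3, and CDK6 at 98.1 and 98.0 against 83.2 and 93.9. AP-1 genes had 4 against 2 of 12 (BATF2, FOSB, JUN and MAFK in H3K18pr), which turned to 4 against 7 without H3K18ac replicate 1.

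Housekeeping lists lay on the acetyl side with all 4 libraries. Ribosomal proteins had none higher in H3K18pr and 42 of 75 higher in H3K18ac, for example RPS3 at 91.9 and 86.0 against 99.6 and 94.1. Without H3K18ac replicate 1 the count was 15 against 43. Mitochondrial ribosomal proteins had 3 against 20 of 39, oxidative phosphorylation 2 against 26 of 55, splicing factors 6 against 40 of 90 and proteasome 2 against 17 of 37. When H3K18ac replicate 1 was left out these were 12 against 23, 15 against 28, 29 against 42 and 7 against 19, and splicing factors (32.2% and 46.7%) stood at the shares of all genes (33.0% and 44.9%).

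Writers of acyl marks and acyl-CoA enzymes were also on the acetyl side, and deacetylases and sirtuins (1 against 2 of 10, and 3 against 3 without H3K18ac replicate 1) were not. Of 8 histone acyltransferases, 5 were higher in H3K18ac and none in H3K18pr. EP300, a writer of H3K18ac that can also use propionyl-CoA, stood at 79.9 and 84.2 in H3K18pr and 99.6 and 99.0 in H3K18ac, and KAT5, KAT6A, KAT7 and TAF1 were the others. Of 18 genes of short-chain acyl-CoA metabolism 12 were higher in H3K18ac and HIBADH alone in H3K18pr. HADHA and HADHB, the trifunctional protein of fatty acid oxidation, share a start region at 91.4 and 84.0 against 99.8 and 99.7. PCCA, the partner of PCCB in propionyl-CoA carboxylase, stood at 23.0 and 51.2 against 68.4 and 79.8. Without H3K18ac replicate 1 the counts were 0 against 5 for the acyltransferases and 4 against 12 for acyl-CoA metabolism.

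**Figure D4:**
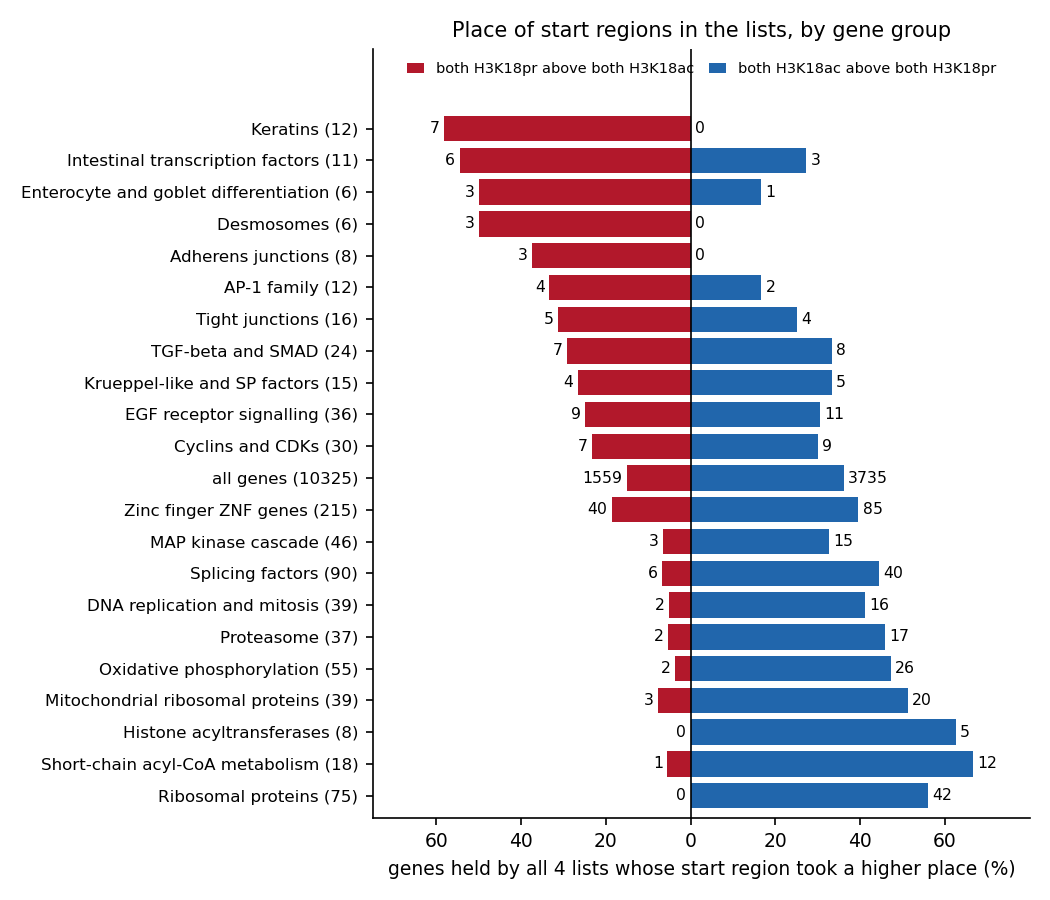
Percentage of the genes of each list held by all 4 libraries (number in brackets) whose start region had the higher place in both H3K18pr libraries (red, left) or in both H3K18ac libraries (blue, right), with equal numbers of regions and the counts beside the bars. Keratins (7 against 0) and ribosomal proteins (0 against 42) are at the ends, with all genes at 1559 against 3735.

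The extremes of place at starts were taken with all regions. VWA3B stood at 96.2 and 92.3 in H3K18pr and 37.4 and 8.4 in H3K18ac, and RSPH4A, a radial spoke protein of motile cilia, at 88.7 and 86.5 against 15.5 and 28.3. BIRC7, an inhibitor of apoptosis, stood at 94.4 and 56.6 against 8.0 and 6.3. Toward acetyl, CSTF2T, an mRNA cleavage factor, stood at 5.7 and 9.9 against 99.6 and 95.9. FERMT1, an integrin activator of epithelia, stood at 6.1 and 2.6 against 97.1 and 81.5. MRPL13 and MTBP share a start region at 16.6 and 12.4 against 98.9 and 92.8, as do ZDHHC24 and ACTN3.

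The strongest regions of the marks differed in how often they sat at a start. Of the 5000 strongest, 27.3% and 24.9% had their summit within 1 kb of a gene start in the H3K18pr lists, against 58.2% and 36.8% in the H3K18ac lists. From there the lists converged, and the bin that ends at place 40000 stood at 14.4% and 10.5% against 17.5% and 13.9%. The share of start summits that lay downstream of the 5′ end was 62.9% and 61.9% against 59.2% and 62.4%, a difference of 1.57 percentage points (exact permutation p = 0.667) that vanished without H3K18ac replicate 1 (−0.0063).

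**Figure D5:**
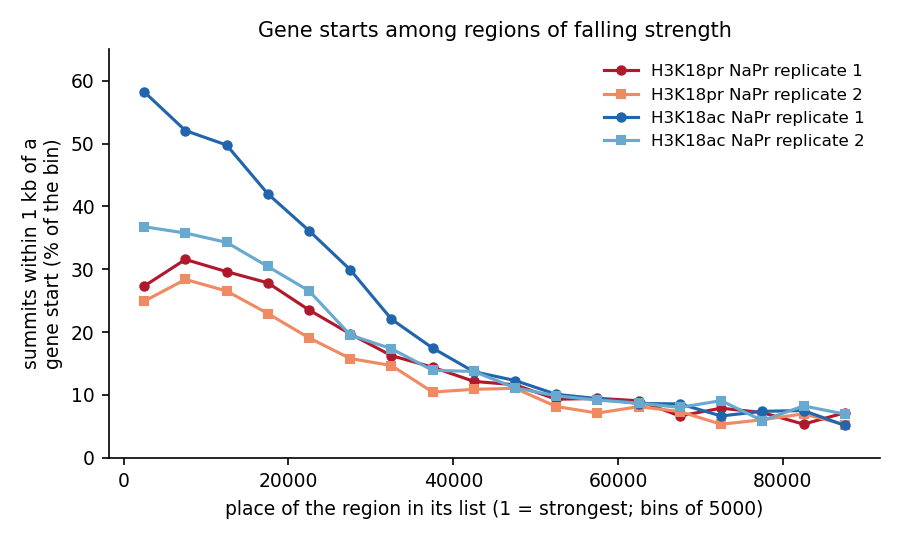
Percentage of summits within 1 kb of a gene start (vertical axis) in bins of 5000 regions ordered from the strongest (horizontal axis), 1 line per library. In the first bin the H3K18ac libraries stood at 58.2% and 36.8% and the H3K18pr libraries at 27.3% and 24.9%.

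Of the 8 leading propionyl-only bodies, 5 had their region deep in the gene. IL21R, a cytokine receptor of lymphocytes, had a fold of 11.3 and 7.52 at about 5465 bp from its start, and no H3K18ac region lay within 33946 bp of that start. C7, a terminal complement protein, had 8.96 and 8.24 at 49945 and 50114 bp, and TBPL2, a germline TBP relative, had 8.22 and 7.78 at 8952 and 8923 bp. ENTPD2, an ectonucleotidase, had 12.7 and 7.28, and CNIH2, an AMPA receptor auxiliary protein, had 6.60 and 8.87. C4orf47, RIBC1 and TTC30B had their summit at the start and their region reached past 1 kb, and the H3K18ac lists held these 3 starts without reaching as far.

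The stable propionyl-only bodies held 242 protein-coding genes, of which the following were chosen after their values were seen. No member of the blood cell or enterocyte lists was among them. IL6 had a fold of 3.47 and 3.39 with no H3K18ac region within 20872 bp, IRF4 had 4.40 and 3.20, and CD38 2.61 and 3.66. PIGR, the receptor that carries IgA across the epithelium, had 4.11 and 4.12, and DUOX2, the mucosal peroxide-making oxidase, 3.36 and 3.66. RSPO3, a Wnt amplifier of crypts, had 3.73 and 3.21. Their median support was 9 and 7 fragments.

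Acetyl-only bodies were of another kind. All 8 leading genes were starts held by both marks at which the H3K18ac region reached farther into the gene. YTHDF3, a reader of N6-methyladenosine, had a fold of 12.7 and 11.01 with its summit 225 and 220 bp from the start. SRSF7, a splicing factor, had 8.59 and 3.97, and GRSF1, a mitochondrial RNA-binding protein, 6.41 and 6.41. MIOS, a subunit of GATOR2, had 6.07 and 4.88, and NIF3L1, CMAS, SLAIN2 and DCTN2 had 3.96 to 6.72. The 380 stable protein-coding members also held HDAC3 (2.82 and 2.30), the type B acetyltransferase HAT1 (5.99 and 2.95), ASH2L, RNF2, MCM6, MRE11, TBP and ATP5F1A (7.83 and 3.43). Within 2 kb of the start the other mark had a region for 280 of the 380, against 111 of the 242 propionyl-only bodies.

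Coverage of long gene bodies gave propionyl the larger count. Of 21945 genes with a body of at least 10 kb, 3377 (15.4%) had a larger covered share in both H3K18pr than in both H3K18ac libraries and 2013 (9.17%) the reverse. With H3K18ac replicate 1 left out these were 8435 (38.4%) and 3321 (15.1%). Over all bodies together the covered share was 2.63% and 2.25% in H3K18pr and 3.72% and 1.54% in H3K18ac, so the groups overlapped (−0.19 percentage points, exact permutation p = 1). H3K18pr regions were wider, with a median of 508 and 460 bp against 293 and 337 bp. The lists covered 73.9 and 62.7 Mb against 89.8 and 46.0 Mb. With equal covered length the difference over all bodies was 0.0031 percentage points. Counts by gene were not made at equal length, and the part of region width in them was not tested.

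Junction and matrix genes were among those covered more by H3K18pr. Of 26 adherens junction genes 7 were covered more by H3K18pr and NECTIN3 alone by H3K18ac. CDH1, E-cadherin, had 17.4% and 13.2% of its body covered against 6.07% and 5.79%, and BAIAP2, an adaptor of actin protrusions, 56.1% and 45.5% against 32.6% and 16.5%. Of 50 focal adhesion genes 10 were covered more by H3K18pr and 3 by H3K18ac. LAMC1, a laminin chain, had 11.7% and 8.88% against 5.46% and 2.57%, and LAMB3, another, 9.02% and 12.6% against 5.91% and 4.66%. Leaving out H3K18ac replicate 1, adherens junctions stood at 17 against 3 and focal adhesion at 39 against 3.

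Growth lists differed, and are read against 15.4% toward propionyl and 9.17% toward acetyl of all genes. With all 4 libraries EGF receptor genes lay below the first share, and TGF-beta and SMAD genes above the second. Of 48 Wnt genes 8 (16.7%) were covered more by H3K18pr and 1 by H3K18ac (35 and 1 without H3K18ac replicate 1), and of 44 EGF receptor genes 4 and 3 (22 and 4). The 8 included AXIN1, LGR5, WLS and WNT7B. TGF-beta and SMAD genes divided 7 to 8 of 38 (21 to 9), with SMAD3 at 50.6% and 36.9% against 29.8% and 29.7%, and BMP1, a procollagen protease, at 34.7% and 23.3% against 9.25% and 10.03%. Without H3K18ac replicate 1 all genes stood at 38.4% and 15.1%. Wnt genes then stood at 72.9% and 2.08%, EGF receptor genes at 50% and 9.09%, and TGF-beta and SMAD genes at 55.3% and 23.7%.

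Housekeeping bodies went the other way with all 4 libraries. No member of mitochondrial ribosomal proteins (40 bodies) or short-chain acyl-CoA metabolism (41) was covered more by H3K18pr, while 11 and 9 were covered more by H3K18ac. Splicing factors divided 4 to 16 of 98, and HNRNPA2B1, an RNA-binding protein, had 10.4% and 6.45% in H3K18pr against 75.4% and 11.3% in H3K18ac. SUMO2 had 2.57% and 0.263% against 59.7% and 8.80%. In both genes H3K18ac replicate 1 had several times the coverage of replicate 2, so the size of the difference rests on that library. Without it mitochondrial ribosomal proteins stood at 6 against 11, acyl-CoA metabolism at 14 against 9 and splicing factors at 36 against 17. All genes then stood at 38.4% toward propionyl and 15.1% toward acetyl. Against these shares mitochondrial ribosomal proteins (15% and 27.5%) stayed toward acetyl. Acyl-CoA metabolism (34.1% and 21.95%) leaned the same way by less, and splicing factors (36.7% and 17.3%) stood near the shares of all genes.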

How the data were processed

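ChIP-seq regions of SW480 cells were analysed as deposited. Per the submitters' processing notes and the study's methods, reads were converted with bcl2fastq 2.17.1, trimmed with cutadapt 1.8.1 and aligned to hg38 with Bowtie2 2.3.1. The authors called peaks in each library on its own with MACS2 2.1.0 against input, at a p-value threshold of 0.01, and removed blacklisted regions. Each deposited region carries a fold, the ratio of summit pileup to local background, a −log10 p-value and a −log10 q-value, all from the authors' caller. These depend on depth and were used to describe, rank or filter regions within a list. Reads were not analysed here.

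All regions of the 4 lists lay inside hg38 chromosomes. Genes were the protein-coding and lncRNA genes of GENCODE 44, and sequence came from the hg38 reference. Percentiles and equal numbers were set by the −log10 p-value (column 8). Summit fragments and depth in fragments per kb were solved from the fold and p of each region, and 100% of the 2000 regions sampled per list gave whole fragments. Group values were compared with two-sided exact permutation tests over 4 libraries. The study calls its 2 replicates a group experimental, and whether they were separate cultures is not given in the sources used here, so p-values measure only the spread between these libraries, which may be technical, and counts of one-sided genes have no test. The 3 input lists served as a filter on the genes named. No column lacked a sample (0). Python 3.11.15, numpy 2.4.6, scipy 1.17.1, pandas 2.3.3 and matplotlib 3.10.9 were used, and the counting was tested on simulated regions.

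Named genes were the 12 (starts) or 8 (bodies) protein-coding genes of each class with the highest lower percentile of both replicates, whose regions passed equal numbers and overlapped no input region, and the 6 genes with the largest difference in place or in coverage in each direction. Other genes were named from the lists or after their values were seen. The libraries, members and 48 gene lists were chosen with earlier results of these data known. Alternatives were equal numbers, the 20000 strongest, equal covered length, other windows, overlaps and gene sets, and leaving out each library. The study compared marks with DiffBind on reads, which is not repeated here. A few genes and sequences are not reported here.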

Additional observations from a re-analysis of the deposited data

How the results depend on the processing

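The number of genes held at starts kept its direction toward acetyl under all alternatives run, from −4284.5 to −483.5 when 1 library was left out. That of body genes turned with equal numbers (1059.5, exact permutation p = 0.333) and without H3K18ac replicate 1 (range −3017 to 1143). The share of start summits downstream ranged from −0.0063 to 3.15 without 1 library. The covered share of bodies turned with equal numbers (0.533), the 20000 strongest (0.321) and equal covered length (0.0031), and ranged from −1.28 to 0.896 without 1 library, with 0.0022 without H3K18pr replicate 2.

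The propionyl share at starts was 30.5% with equal numbers, 8.55% with equal covered length, 16.6% with the summit in the window, 13.3% for protein-coding genes, 17.4% with 500 bp and 23.9% with any transcript start. Leaving out 1 library gave 12.9% to 39.6%, with 575 to 1412 propionyl-only and 1958 to 3874 acetyl-only genes. The mark with 1 library left then needed only that list, so the rule differed between the classes in these settings. Equal covered length gave 198 and 2119, and protein-coding genes alone 135 propionyl-only starts. The body share was 59.99% with equal numbers, 49.5% with the 20000 strongest, 13.3% with equal covered length, 44.7% with 200 bp of overlap, 31.7% for protein-coding genes and 35.0% with the whole gene. Without 1 library it was 26.4% to 56.2%, with 1223 to 2179 and 1696 to 3412 genes. Body counts were 901 and 601 with equal numbers, 584 acetyl-only with the 20000 strongest, 234 and 1520 with equal covered length, and 245 and 528 for protein-coding genes. Chosen after seeing the data, a fold of at least 2 gave shares of 24.5% and 42.8%, and equal numbers without H3K18ac replicate 1 gave 39.9% (1425 and 2144) at starts and 56.2% (2192 and 1706) over bodies. Placing starts with equal numbers, the library overlaps, the octamer and the values without H3K18ac replicate 1 for coverage, start sequence, other marks and chromosomes were added in the same way. The cause of these changes was not tested.

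Replicates share a number between marks but nothing more that the labels state (correlation of their deviations over genes 0.032 at starts, 0.023 over bodies). With the replicate block the differences stayed at −2384, −937, 1.57 and −0.19, with exact p of 0.5, 1, 1 and 1, where 0.5 is the smallest possible. With 3.38 to 4.93 fragments per kb, H3K18pr was read at lower depth than H3K18ac (24.1 to 38.6), and the weakest propionyl-only starts rested on 5 fragments. A missing region is not an absent mark.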

Other observations

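One-sided bodies were spread unevenly over chromosomes. Chromosome 8, with 4.07% of the genes, had 7.85% of the propionyl-only and 2.10% of the acetyl-only bodies, and chromosome 4, with 4.17% of the genes, had 8.94% and 2.65%. Chromosome 11, with 5.71% of the genes, had 1.64% and 7.73%. Without H3K18ac replicate 1 the shares were 4.64% and 2.77% on chromosome 8, 5.19% and 3.48% on chromosome 4, and 4.91% and 7.49% on chromosome 11. At starts these chromosomes held 2.59% to 7.205% of the propionyl-only and 3.35% to 6.54% of the acetyl-only genes.

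The strongest regions of 3 lists lay at the same places. A region on chromosome 12 from 52143538 to 52152105, 17185 bp from LINC00592 and over an input region, led both H3K18pr lists (fold 262 and 169) and was second in H3K18ac replicate 2 (60.2). In each of these lists the next place was held by a region in LINC02964 on chromosome 8, also over an input region. H3K18ac replicate 1 was led instead by the promoters of SNX8, BUD31 and PFDN4, with SNX8 also first in H3K18ac replicate 2.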
